A study of Mus musculus with 2 samples.

Results

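Ciliated airway cells were examined in single-cell transcriptomes of whole lungs that carried a low or a high metastatic burden. Cells were selected by the summed level of 5 genes, Foxj1, 1110017D15Rik, Tmem212, Dynlrb2 and Ccdc153, at 10 or more unique molecular identifiers (UMIs, counts of captured mRNA molecules) per 10000 UMIs of the cell. This rule kept 84 of 5506 cells, 63 of 2473 in the low-burden library and 21 of 3033 in the high-burden library. Female FVB/NJ mice, 10 weeks old at injection, had all been injected through the tail vein with Met-1, a tumour line from mouse mammary gland that carries the PYMT transgene. The low-burden lung was collected at week 1 and the high-burden lung at week 3, and neither group was an uninjected control. Each group was 1 library, so no difference between them has a replicate check, no p-value is given, and burden, time after injection and mouse cannot be told apart. Intervals in brackets are exact 95% intervals that cover counting error only.

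Multiciliated cells line the conducting airways and move mucus by beating motile cilia. Each cilium is built on a basal body and holds a ring of microtubule doublets around a central pair. Outer and inner dynein arms drive the sliding of the doublets, radial spokes and the nexin-dynein regulatory complex turn sliding into bending, and intraflagellar transport carries the parts to the growing tip. The transcription factor Foxj1 switches on the genes of motile cilia together with members of the RFX family, after Gmnc, Mcidas and Ccno have started the multiciliated programme. Club cells, the secretory neighbours of ciliated cells, release Scgb1a1 and can give rise to ciliated cells.

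The libraries differed in depth and makeup. The low-burden library held 14041471 UMIs and the high-burden library 52723173, with medians of 4073 and 13998 UMIs per kept cell. The limits of 1000 to 7000 genes and at most 10% mitochondrial UMIs removed 195 and 88 barcodes, among them 14 low-burden and 2 high-burden barcodes that met the ciliated rule, of which 13 and 2 were over the mitochondrial limit. The libraries shared 11 cell barcodes, 2 of which were ciliated in either library. Doublets were kept, since a doublet caller (Scrublet) marked 16 of 5506 cells, too few to have worked, and 0 of the 84.

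Ciliated cells made up 2.55% of low-burden cells (1.96 to 3.25%) and 0.692% of high-burden cells (0.429 to 1.06%). The median summed level of the 5 genes, which chose the cells, was 65.3 per 10000 in the low-burden cells (lowest 10.8, highest 121.8) and 35.9 in the high-burden cells (lowest 11.5, highest 78.7). Just inside the threshold lay low-burden cells at 10.8, 14.6 and 14.6 and high-burden cells at 11.5, 12.2 and 14.4. Just outside it lay cells at 9.70, 8.49 and 7.85 and at 8.54, 5.39 and 4.24. From 5 to under 10 lay 6 low-burden and 2 high-burden cells. From 10 to under 20 lay 5 of the 63 low-burden and 6 of the 21 high-burden ciliated cells, and 4 and 5 of these met a gate for club cells, described next. Among cells that met the ciliated rule or a gate for club or alveolar type 2 (AT2) cells, which secrete surfactant, the ciliated share was 30.9% of 204 low-burden cells (24.6 to 37.7%) and 17.9% of 117 high-burden cells (11.5 to 26.1%).

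The ciliated cells differed in club genes and were split at a set level. A gate for club cells (Scgb1a1, Scgb3a2 and Cyp2f2 summed at 200 or more per 10000) was also met by 9 of the 63 low-burden cells, 14.3% (6.75 to 25.4%), and by 12 of the 21 high-burden cells, 57.1% (34 to 78.2%). Cells that met the rule but not the club gate were 2.18% of low-burden cells (1.64 to 2.84%) and 0.297% of high-burden cells (0.136 to 0.563%). Cells that met both were 0.364% (0.167 to 0.690%) and 0.396% (0.205 to 0.690%), shares whose intervals overlap almost entirely. The lower ciliated share at high burden thus lay in the cells below the club gate. Seen from the club side, 9 of 30 low-burden club-gate cells (30.0%) and 12 of 36 high-burden club-gate cells (33.3%) met the ciliated rule. Of the other gates, the AT2 gate was met by 1 ciliated cell and the endothelial gate by 3, all low-burden, against 123 and 677 low-burden cells that met these gates, and the lymphocyte, stromal, macrophage and alveolar macrophage gates were met by 0.

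**Figure D1:**
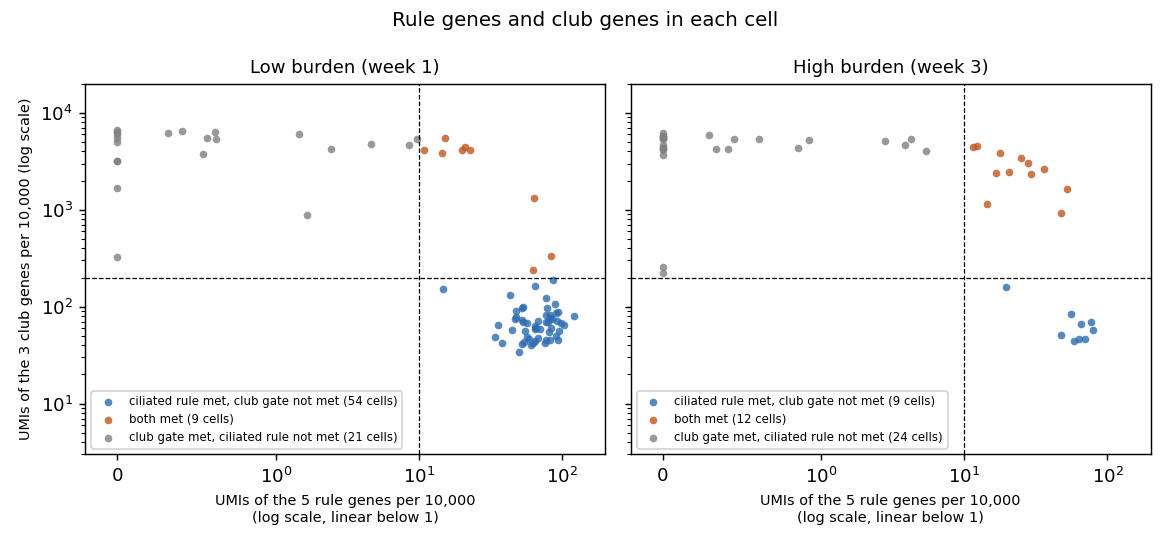
Each point is a cell, with the UMIs of the 5 rule genes per 10000 on the x axis (log scale, linear below 1) and those of the 3 club genes on the y axis (log scale), and dashed lines mark the thresholds of 10 and 200. In the low-burden panel 54 ciliated cells lie below the club threshold and 9 above it, and in the high-burden panel 9 lie below and 12 above.

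Cells that met both gates were deeper and carried many UMIs of both gene sets. Their median depth was 28681 UMIs at low burden and 21221 at high burden, against 5442 and 6036 UMIs in ciliated cells below the club gate and 27743 and 21082 in club-gate cells that did not meet the rule. They held a median of 80 and 42.5 UMIs of the 5 rule genes, against 38.5 and 38 in ciliated cells below the club gate and 1 and 0 in the other club-gate cells. They held medians of 11799 and 5921.5 UMIs of the 3 club genes, against 34.5 and 38 below the gate and 16772 and 9517 in the other club-gate cells. Per 10000 UMIs the rule genes were therefore lower in them, with medians of 21.1 and 22.8 against 67.1 and 63. Of the 84 cells, 63 thus carried ciliated markers below the club gate, and 21 met the club gate as well. Whether a droplet that met both held more than 1 cell was not tested. Both sets are reported together and, where values differ, apart.

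Ciliated cells below the club gate still held a club gene. Cyp2f2, a cytochrome P450 of the airway epithelium, was at 2702 CPM (UMIs summed over cells and scaled to 1000000 in all) at low burden and at 2276 CPM at high burden, in 54 of 54 and 9 of 9 cells. Lymphocyte-gate cells, which should lack it, held 26.6 and 22.7 CPM. The 54 low-burden ciliated cells held 1467 UMIs of Scgb1a1 beside 948 of Cyp2f2, and 187 lymphocyte-gate cells held 1897 beside 20. Scgb1a1 itself, the main club cell secretoglobin, was at 4182 and 4721 CPM in these ciliated cells and at 2526 and 1488 CPM in lymphocyte-gate cells, and Scgb3a2 was at 65.6 and 181 CPM against 32.0 and 35.4. The part of free RNA in these levels was not tested.

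The 5 rule genes are given as a description, since they chose the cells. Foxj1 (ENSMUSG00000034227, chr11:116330704-116335399 in GRCm38, the assembly of mm10) had 276 UMIs in low-burden ciliated cells, 461 CPM (408 to 519), and 172 UMIs in high-burden cells, 541 CPM (464 to 629). Per cell Foxj1 ran from 0 to 17 UMIs with a median of 4 at low burden and from 0 to 26 with a median of 6 at high burden. It was seen in 56 of 63 and 20 of 21 cells, and with each cell thinned to 2000 UMIs in 54% and 81.0%. Lymphocyte-gate cells held 3 Foxj1 UMIs in 187 low-burden cells and 0 in 55 high-burden cells, which allows up to 7.58 CPM.

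The other rule genes were lower at high burden when all ciliated cells were summed. 1110017D15Rik (chr4:41505009-41517333) was at 1491 CPM (1394 to 1592) and 1039 CPM (930 to 1157), with a UMI in every cell of both libraries. Tmem212 (chr3:27866066-27896368), a membrane protein gene, was at 1009 and 677 CPM, and Ccdc153 (chr9:44240676-44247306), a coiled-coil protein gene, at 939 and 639 CPM. Dynlrb2 (chr8:116504974-116515915), a light chain of cytoplasmic dynein, was at 1161 CPM (1077 to 1251) and 513 CPM (437 to 598), a log2 ratio of high over low burden of -1.18. Below the club gate the ratio of Dynlrb2 was -0.86, and those of 1110017D15Rik, Tmem212 and Ccdc153 were -0.23, -0.055 and -0.30. Ciliated cells held 90.6% of all rule-gene UMIs at low burden and 75.7% at high burden, and the remaining 315 and 348 UMIs lay in other cells.

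**Figure D2:**
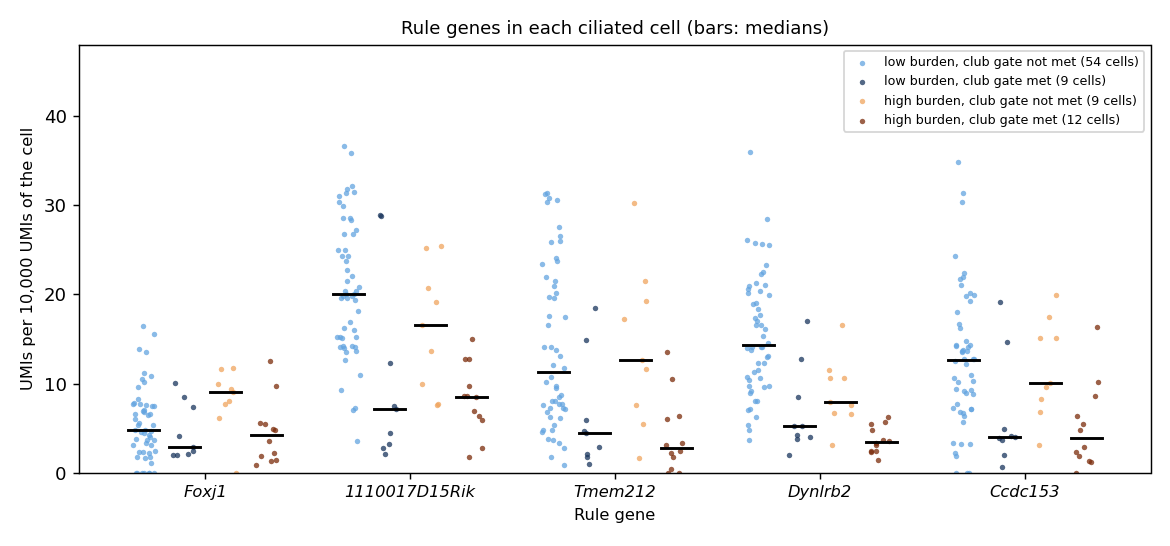
Each point is a ciliated cell, with the UMIs of each rule gene per 10000 UMIs of the cell on the y axis, split by library and club gate, and bars mark medians. Medians of 1110017D15Rik are 20.1 and 16.6 per 10000 below the club gate at low and high burden and 7.11 and 8.54 in cells that met it.

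RFX factors bind a paired element called the X-box, and promoters were searched for it because these genes share their high level in ciliated cells. Promoters were those of RefSeq on GRCm38.p6, 250 bases before to 50 after the transcript start, and the X-box was taken as GTNNCC and NGNAAC with 0 to 3 free bases between them on either strand, where N is any base. A match was found for 3 of 4 rule genes with an entry, 1110017D15Rik, Dynlrb2 and Ccdc153, and not for Tmem212. Of the 20 genes that led the ciliated cells, named further on, 15 had an entry and 4 of them a match, Fam183b, Gm867, Pifo and Meig1, the last past its transcript start and at the window's edge, so that it is not shown. 1110017D15Rik and Pifo each matched in 1 of 2 promoters, at a RefSeq start inside the annotated gene. Pifo matched at 2 places there, of which the one nearer the start is shown. The windows of the rule genes lie at chr4:41507762-41507790 (minus strand), chr8:116504956-116504984 (plus strand) and chr9:44240536-44240563 (plus strand). The windows of Fam183b, Gm867 and Pifo lie at chr11:58801956-58801984, chr10:75940698-75940726 and chr3:106001496-106001525 (all minus strand). The windows below are written 5′ to 3′ on the strand of the gene, with the X-box in capitals and 8 flanking bases on each side.
1110017D15Rik: gtaaatgtGTTGCCCGGCAACaactcgaa
Dynlrb2: cctgcctgGTTGCCTAGCAACgggggaag
Ccdc153: aacgtgcaGTATCCAGAAACccaacatc
Fam183b: gaacatccGTTGCCTGGAAACtgtagaag
Gm867: taggtccaGTTACCAGGATACtgaggata
Pifo: gcggttccGTTCCCTTGGCAACgtagtaca

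The first base of the match lay 18 bases before the transcript start in 1110017D15Rik, 51 in Dynlrb2 and 133 in Ccdc153, and 16, 46 and 20 in Fam183b, Gm867 and Pifo. Over all 27025 genes with an entry, 5.94% held a match in at least 1 promoter. Of the 213 ciliary list genes with an entry, 67 (31.5%) held one, among them 32 of the 95 (33.7%) that were at least 4-fold higher in ciliated than in other cells of both libraries. The element GTTGCC, which overlaps the left part of the X-box, was in the promoters of 93 of these 213 genes (43.7%) and of 14.1% of all genes. TGTTTAC, a forkhead element, was in 11 of 213 (5.16%) and in 4.05% of all genes. A match describes the letters of the window and shows no binding.

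The genes that led the ciliated cells outside the rule included several of the axoneme, the microtubule core of the cilium, and several named only by a clone or model number. They were the 20 with the highest ratio of ciliated over other cells (CPM plus 5, the smaller of both libraries). Fam183b, whose product lies inside the doublet microtubules, was at 1462 CPM in low-burden ciliated cells and at 8.04 CPM in other cells, a log2 ratio of 6.81, and at high burden the ratio was 7.07 with 1.66 CPM in other cells. Cfap126 (Flattop), which binds the doublets, was at 709 and 400 CPM with ratios of 6.17 and 5.93, and Rsph1, a radial spoke head protein, at 575 and 368 CPM with ratios of 5.91 and 5.81. Pifo, needed at the ciliary base, had ratios of 5.77 and 5.57, and Sntn, a protein of the ciliary tip, 5.88 and 5.38. Meig1 (6.34 and 6.03), AU040972 (6.93 and 6.29), 1700016K19Rik (6.21 and 6.47), Riiad1 (6.17 and 6.35), 1700007K13Rik (6.12 and 6.08) and Gm867 (5.98 and 5.82) filled the first ranks with them. Tctex1d4, a dynein light chain, and Tspan1, a tetraspanin, followed at 5.63 and 5.40 and at 5.36 and 5.61. Others were Cyp2s1, a cytochrome P450, with ratios of 5.60 and 6.22, Vpreb3, known from B cell precursors, at 5.39 and 5.63, and Arhgdig at 5.29 and 5.42. Vpreb3 was also at 53.3 and 17.7 CPM in lymphocyte-gate cells. The remaining 4 were Gm29538, 3300002A11Rik, BC051019 and 1700001C02Rik, with ratios from 5.18 to 5.68. All 20 were lower in CPM in cells that met both gates than in ciliated cells below the club gate, in both libraries. Scgb1a1 took 374910 and 274532 CPM of the first set and 4182 and 4721 CPM of the second.

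Of 261 genes in 13 ciliary lists, 216 had the 50 UMIs over all kept cells that were asked for, and 120 of these (55.6%) were at least 4-fold higher in ciliated than in other cells of both libraries, against 3.61% of 13630 genes. Some passed the minimum only through the ciliated cells: 152 passed it in the other cells alone, and 57 of these (37.5%) were 4-fold higher. Of the 45 genes below the minimum, 3 had no UMI in any kept cell. The median log2 ratio of the 216 was 2.89 at low burden and 2.49 at high burden, and over all genes it was -0.23 and -0.21. These counts describe cells that were chosen by related genes and are no test.

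Motor and axoneme lists differed in how many tested members stood out. The UMI minimum also counted ciliated cells, so genes rare in other cells could be tested only if high in ciliated cells. In other cells the 17 central pair genes held 357 UMIs at low burden and 469 at high burden. The 31 intraflagellar transport genes held 6777 and 35564. The counts and medians of the lists therefore do not rank the lists against each other. Of the central pair 14 of 14 tested genes were 4-fold higher, with Spag17 at 177 and 230 CPM in ciliated cells and log2 ratios of 4.90 and 5.47, and Hydin at ratios of 3.76 and 3.69. Among the nexin-dynein regulatory complex and its ruler proteins 18 of 19 were, with Drc1 at 174 and 101 CPM and Ccdc40 at 112 and 91.3 CPM. Of the inner dynein arms 10 of 11 were, led by Tctex1d4, Dnali1 (226 and 164 CPM) and Dnah12 (211 and 116 CPM), of the radial spokes 11 of 13, and of the microtubule inner and wall proteins 22 of 27, with Tppp3 at 3555 and 2855 CPM. The outer dynein arms and their docking proteins gave 8 of 17, with medians of 2.89 and 1.97. These 8 were the heavy chains Dnah5, Dnah9 and Dnah11, the intermediate chains Dnaic1 and Dnaic2, and the docking proteins Ccdc114, Armc4 and Ttc25. Dynll1 and Dynlrb1, light chains that many cells use, had log2 ratios from -0.55 to 1.32.

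The other ciliary lists ranged from 2 of 11 to 9 of 18, under the same UMI minimum and its limit. Of the dynein assembly factors, which preassemble the arms in the cytoplasm, 6 of 12 were 4-fold higher, with medians of 2.69 and 2.00, and Zmynd10 at 117 and 85.0 CPM. Intraflagellar transport gave 10 of 29, with Ift43 at 419 and 378 CPM, and the BBSome and transition zone, the gate of the cilium, 5 of 24. Nucleotide and calcium enzymes of the cilium gave 9 of 18, with medians of 2.30 and 2.44, the tubulins and their modifying enzymes 3 of 15 (Tubb4b, Ttll3 and Agbl2) and centriole amplification 2 of 11 (Cetn4 and Ccp110). Tubb4b, the beta tubulin of motile cilia, was at 1203 and 1033 CPM with log2 ratios of 2.88 and 2.07, and Tubb5 was at 75.2 and 170 CPM with ratios of -2.36 and -2.28. Among the transcription factors 4 of 10 were 4-fold higher, Myb with 34 and 34 UMIs, Rfx3 with 31 and 17, Trp73 with 30 and 9 and the kinase gene Ulk4, kept in this list, with 38 and 19. Gmnc had 1 and 0 UMIs and Mcidas 0 and 3.

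**Figure D3:**
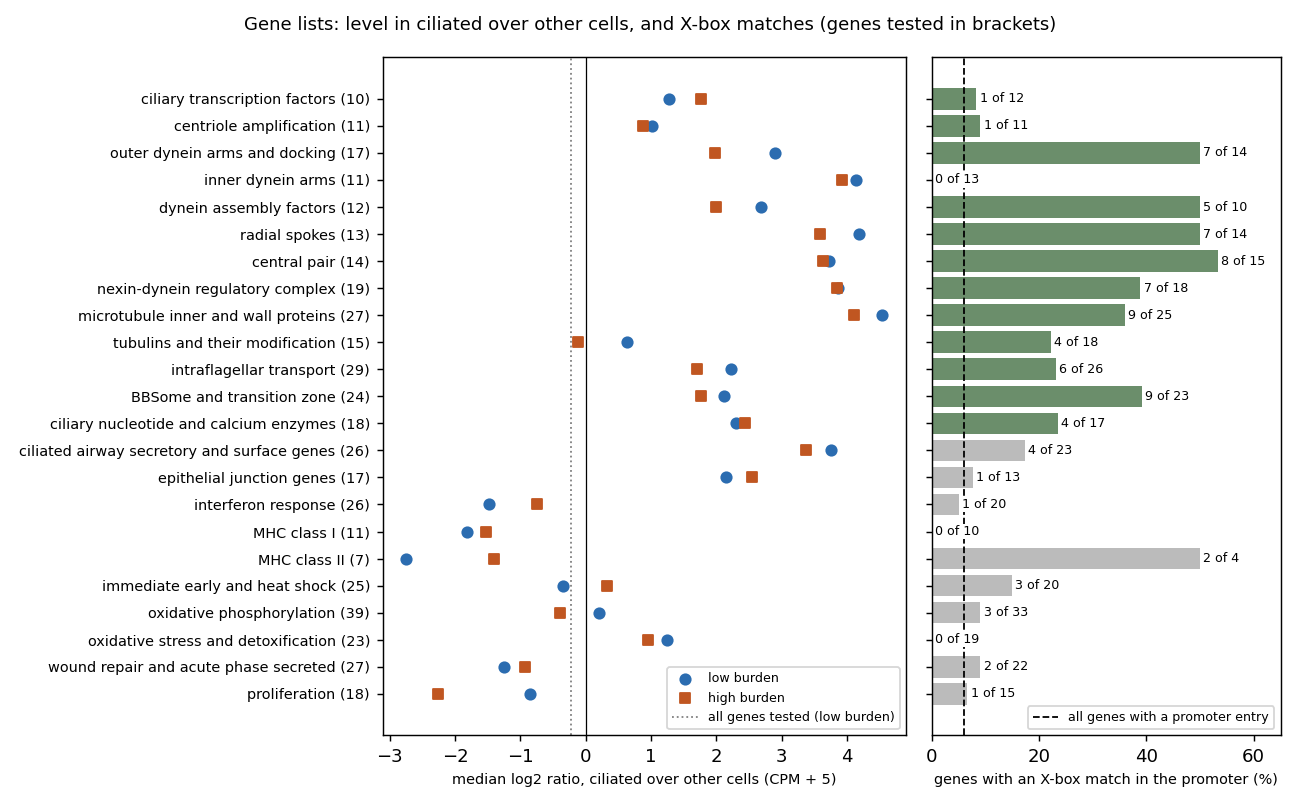
The left panel gives the median log2 ratio of CPM plus 5 in ciliated over other cells for each list and library, with the number of genes tested in brackets, and the right panel the share of each list's genes with an X-box match, with a dashed line at the 5.94% of all genes. Medians of the inner dynein arms, radial spokes, central pair, regulatory complex and microtubule inner proteins lie above 3.5 at both burdens and those of the outer dynein arms at 2.89 and 1.97. The central pair holds 8 of 15 genes with a match and the inner dynein arms 0 of 13. Tested genes passed a UMI minimum that also counted ciliated cells, so the left panel does not rank the lists.

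The members with the most UMIs were not always those that stood out. In the radial spokes Rsph1, Nme5 (282 and 227 CPM) and Rsph9 (236 and 170 CPM) led and had log2 ratios of 4.29 or more. In the central pair Spef1 and Spag6l had ratios of 3.11 and 3.43 and of 4.92 and 4.27, and in the regulatory complex Lrrc48 and Iqcg had ratios from 4.75 to 4.91 and Cfap20 2.37 and 1.74. Among the assembly factors Dpcd was at 3.34 and 3.05 and Ruvbl2, which all cells use, at 2.43 and 1.05. Of the centriole genes Cetn2, a centrin, was at 2.46 and 1.96, Cetn4 at 4.89 and 3.16 and Ccp110 at 2.24 and 2.49. Of the tubulins Tuba1a was at 1.40 and 2.12 and Tuba1b at 0.29 and -0.12. In intraflagellar transport Traf3ip1 was at 3.96 and 4.43 and Ift20 at 1.21 and 1.49, and at the transition zone B9d1 was at 3.84 and 1.59, Arl3 at 2.28 and 1.74 and Bbip1 at 1.27 and 1.22. Of the calcium-binding members Calml4 was at 4.36 and 3.87, Efcab10 at 5.72 and 5.03 and the scaffold Akap9 at 2.36 and 2.36.

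Of 26 secretory and surface genes listed for ciliated airway cells, 20 were 4-fold higher than in other cells of both libraries, against 3.61% of all genes. They were listed for this cell type with earlier results of these data known, so this count is no test. Cbr2, a lung carbonyl reductase, was at 11720 and 8443 CPM with 6 to 393 UMIs per low-burden cell and 30 to 285 per high-burden cell. Sec14l3, a lipid-binding protein, was at 2004 and 1650 CPM below the club gate and at 272 and 312 CPM in club-gate cells outside the rule. Cd24a, a surface glycoprotein, was at 1978 and 1963 CPM below the club gate and at 168 and 188 CPM in those club-gate cells. Epithelial junction genes gave 8 of 17, with Cldn3 at 993 and 762 CPM and Krt8 at 551 and 538 CPM. Prdx6, Gstm1 and Aldh1a1, enzymes against oxidants and aldehydes, had ratios of 2.14 and 2.41, 1.5 and 3.89 and 2.75 and 4.82, and the keratin Krt19 of 1.65 and 3.53. Cxcl17, a mucosal chemokine, was the only gene of 27 in the wound repair list to be 4-fold higher, at 424 and 201 CPM. Of the interferon, major histocompatibility complex (MHC) class I, MHC class II, immediate early and heat shock, oxidative phosphorylation and proliferation lists, 0 genes were, and of the oxidative stress list 4 of 23.

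Ciliary genes as a whole had a lower summed level at high burden over all ciliated cells and nearly equal levels below the club gate. Their sum was 37412 CPM at low burden and 29466 CPM at high burden over all ciliated cells. Below the club gate it was 50202 and 49247 CPM, and in cells that met both gates 19290 and 22466 CPM, against 4105 and 3738 CPM in other club-gate cells and 5486 and 6791 CPM in lymphocyte-gate cells. Of 133 ciliary genes compared between libraries, 1 was at least 2-fold higher at high burden and 6 were at least 2-fold lower, against 1.51% higher and 4.74% lower of all 2512 genes compared, with a median log2 ratio of -0.44. These counts are near the shares of all genes. Below the club gate 2 of 101 were higher and 4 lower, against 2.24% and 4.75% of all genes, with a median of -0.059, beside -0.055 over all 1517 genes compared there. The share of ciliated cells that met the club gate was 14.3% at low burden and 57.1% at high burden. Its part in the lower sum was not tested.

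Over all genes, 2512 reached 50 UMIs in the 84 ciliated cells, with a UMI in 10% or more of the ciliated cells of either library. Of these 38 (1.51%) were at least 2-fold higher at high burden and 119 (4.74%) at least 2-fold lower. The median log2 ratio of the 2512 was -0.15, and with ratios centred on it 51 were higher and 85 lower, 37.5% of calls higher against 24.2%. Below the club gate 1517 genes passed the same filter, with 34 (2.24%) higher and 72 (4.75%) lower. Of the 38 higher and 119 lower genes, 13 and 61 passed both filters. Of these, 13 of 13 were also 2-fold higher below the club gate and 35 of 61 also 2-fold lower. Cells below the gate are part of the ciliated cells, so these counts are no independent check. Some of the 2-fold genes differed alike in cells of another class: 13 of the 38 higher genes were also 2-fold higher in lymphocyte-gate cells, where 5.11% of 2230 genes were, and 32 of 87 lower genes with a value there were also 2-fold lower, where 7.31% were. The part of free RNA in these ratios was not tested.

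Spp1, S100a4, Lcn2 and Lgals1 were higher at high burden in most ciliated cells. Spp1 (osteopontin) had 13 UMIs in 10 of 63 low-burden cells, at most 2 per cell, and 231 UMIs in 21 of 21 high-burden cells, from 2 to 26 per cell, a log2 ratio of 5.06 (4.26 to 6.0). Every high-burden cell lay at or above the highest low-burden cell in UMIs, in cells whose median depth was 14059 against 5721 UMIs. Ciliated cells held 21.7 and 727 CPM, lymphocyte-gate cells of the same libraries 69.2 and 684 CPM, and all other cells 322 and 5444 CPM. S100a4, a calcium-binding protein, had 7 and 87 UMIs, a ratio of 4.55 (3.45 to 5.91), and Lgals1 (galectin 1) 60 and 376, a ratio of 3.56 (3.17 to 3.98), with lymphocyte-gate ratios of 0.91 and 1.09. In other cells S100a4 went from 142 to 1820 CPM and Lgals1 from 835 to 5947 CPM, above the 274 and 1184 CPM of high-burden ciliated cells. Lcn2, an iron-sequestering protein of acute airway responses, had 7 UMIs in 2 low-burden cells and 47 in 18 of 21 high-burden cells, a ratio of 3.66 (2.51 to 5.05). In lymphocyte-gate cells Lcn2 went from 2.66 to 152 CPM, against 11.7 and 148 CPM in ciliated cells and 22.1 and 1132 CPM in other cells. The part of free RNA in these genes was not tested.

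The other 6 of the 10 highest genes drew from 36.0 to 96.6% of their high-burden UMIs from 1 of 2 cells, against 11.3 to 28.7% from the top cell for Spp1, S100a4, Lcn2 and Lgals1. Ccl12, a monocyte chemokine, had 0 UMIs at low burden and 69 at high burden, at least 43.3-fold higher against the 3 counts that 0 allows, and 57 of the 69 lay in 1 cell. In other cells Ccl12 was at 9.54 and 266 CPM. Without that cell its log2 ratio was at least 2.97. Isg15, an interferon-induced ubiquitin-like protein, had 3 and 58 UMIs, a ratio of 5.19 (3.57 to 7.51), and 56 of the 58 lay in another cell. That cell also held 191 of the 401 UMIs of Cd74, the invariant chain of MHC class II, and the Ccl12 cell held 101 of them. Without the top cell of each library the ratio of Cd74 went from 1.85 to 1.20 and that of H2-Ab1, a class II beta chain, from 1.42 to 0.95. The Ccl12 cell also held 33 of 72 UMIs of the neutrophil chemokine Cxcl2 (ratio 2.76) and 18 of 45 of Fcer1g, an Fc receptor chain of myeloid cells (1.76). Socs3, a cytokine signalling inhibitor, had 29 and 50 UMIs, a ratio of 1.70 (1.01 to 2.41), and 0.49 (-2.03 to 2.50) below the club gate. The Isg15 cell held 92 UMIs of the rule genes and met the club gate, and the Ccl12 cell held 25 and did not.

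The 2 lowest genes also drew most of their UMIs from single cells. Lyz1, a lysozyme of AT2 cells, had 190 UMIs at low burden and 10 at high burden, a log2 ratio of -3.33 (-4.42 to -2.42). Of the 190, 159 lay in 1 cell that held 1076 UMIs of the AT2 gene Sftpc and was the only one to meet the AT2 gate, and with all cells that met another gate left out the ratio was 0.64. Scgb3a1, an airway secretoglobin, had 1799 and 117 UMIs, of which 1769 and 104 lay in 1 cell of each library, and its ratio of -3.03 was 1.34 below the club gate. Gstp1, a glutathione transferase with a near-identical neighbour that could share its reads, had 153 UMIs in 40 of 63 low-burden cells and 14 in 6 of 21 high-burden cells, a ratio of -2.54 (-3.44 to -1.75), and -3.65 (-6.71 to -1.76) below the club gate. In lymphocyte-gate cells the ratio of Gstp1 was -1.78. Sult1d1, a sulfotransferase, had 63 UMIs in 9 low-burden cells and 6 in 2 high-burden cells (-2.48, -3.98 to -1.28). Of the 63, 44.4% lay in 1 cell, and 5 of the 6 lay in 1 cell. Gpr155, a lysosomal membrane protein, had 61 UMIs in 30 cells and 6 in 5 (-2.43, -3.93 to -1.23).

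The remaining 5 of the 10 lowest genes, with Icam2 and Aqp1 known from endothelium, were lower in ciliated than in other cells. Icam2, an adhesion molecule, had 47 and 4 UMIs (-2.64), Gng11, a G protein subunit, 68 and 7 (-2.37), Aqp1, a water channel, 62 and 7 (-2.23), Fxyd1, a sodium pump regulator, 47 and 5 (-2.32), and Pcolce2, a collagen processing protein, 47 and 5 (-2.32). In other cells these 5 genes were at 227 to 652 CPM at low burden and 26.1 to 126 CPM at high burden, above the 78.5 to 114 and 12.6 to 22 CPM of ciliated cells. The part of free RNA in them was not tested.

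**Figure D4:**
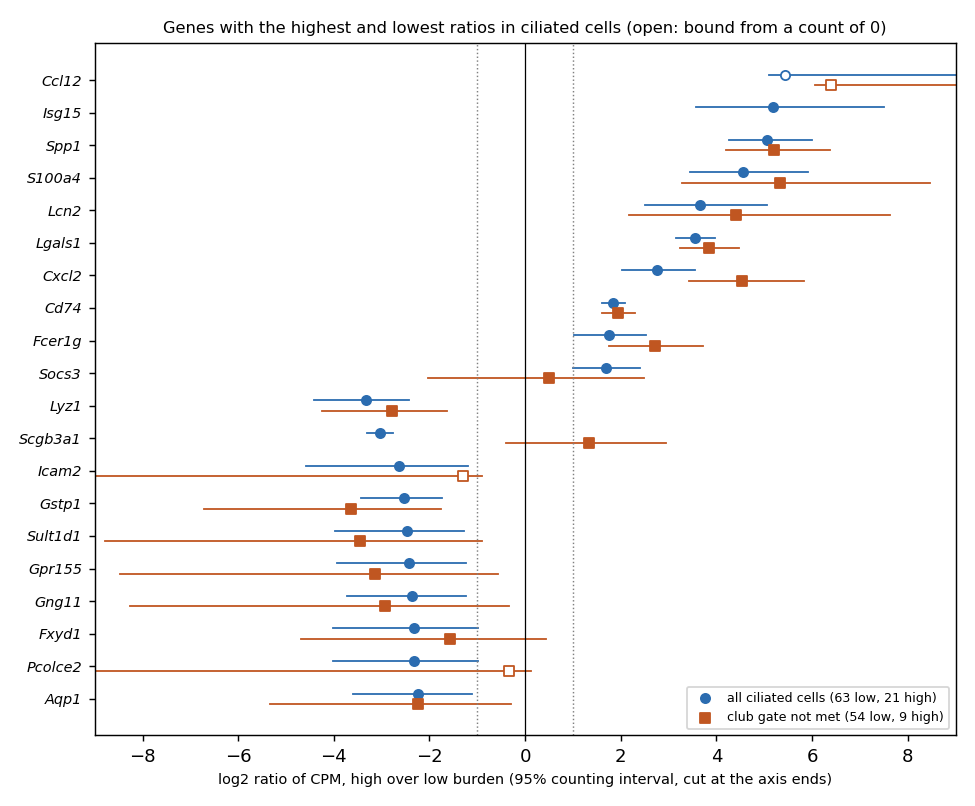
Points give the log2 ratio of CPM at high over low burden for the 10 highest and 10 lowest genes, over all ciliated cells and over those below the club gate, with 95% counting intervals, and open points are bounds from a count of 0. Scgb3a1 lies at -3.03 over all cells and at 1.34 below the club gate, while Spp1, S100a4, Lcn2 and Lgals1 lie above 3.5 in both.

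The 2-fold genes of the ciliary lists, whose shares were near those of all genes, were as follows. Outside the rule genes, of which Dynlrb2 was lower, Tubb5 (log2 ratio 1.18, 0.58 to 1.78) was higher. The lower ones were the outer arm heavy chain Dnah5 (-1.05, -1.69 to -0.45), the docking protein Armc4 (-1.12, -2.28 to -0.10), the light chain Dynlt1f (-1.92, -2.54 to -1.34), the central pair protein Cfap54 (-1.24, -2.33 to -0.28), the adenylate kinase Ak7 (-1.22, -2.05 to -0.47) and Efcab10 (-1.18, -1.63 to -0.75). Dynlt1f belongs to a family of near-identical copies whose reads may be split among them. Dcdc2a (-1.38) and Lrrc34 (-1.09) of the surface list were also lower. These 8 genes kept a negative ratio below the club gate, from -0.42 to -1.66. The epithelial junction, oxidative phosphorylation and MHC class I lists had 0 genes past 2-fold among 10, 39 and 4 compared, with medians of -0.080, -0.019 and -0.085. Their most abundant members, Cox6c, Cox4i1, Ndufa4, H2-D1, B2m and H2-K1, had ratios from -0.38 to 0.10.

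Response genes differed in both directions, and their counts stand beside 1.51% higher and 4.74% lower of all genes. Of 9 wound repair and acute phase genes compared, 4 were higher, Spp1, Lcn2, Cxcl2 and Cyr61 (1.08, 0.44 to 1.74). In the other direction 2 were lower, Cxcl17 (-1.08, -1.49 to -0.67) and the growth factor Areg (-2.03, -3.42 to -0.89). Areg had 54 UMIs in 26 low-burden cells and 7 in 6 high-burden cells. Spp1 (13 and 231 UMIs), Lcn2 (7 and 47) and Cxcl2 (20 and 72) reached the 50 UMIs asked for only with their high-burden counts. Areg reached them only with its low-burden counts. Of the 72 UMIs of Cxcl2, 33 lay in 1 cell. The counts of this list are therefore no test. Of 9 interferon genes Isg15 was higher, with 3 and 58 UMIs, and it too passed only with its high-burden counts. Ifitm1 (-2.13, -2.78 to -1.54) and Ly6c1 (-1.5, -2.20 to -0.86) were lower. Ifitm1, a membrane protein that limits virus entry, went from 359 to 81.8 CPM in ciliated cells and from 14.6 to 164 CPM in lymphocyte-gate cells. The most abundant interferon genes, Ly6e, Ifitm3 and Ly6a, had ratios of -0.17, 0.35 and -0.73. Cd74 and H2-Ab1 were the class II genes past 2-fold of 3 compared, with H2-Aa at 0.90. Of the 401 high-burden UMIs of Cd74, 191 and 101 lay in 2 cells. The heat shock gene Hsph1 (-1.23, -1.93 to -0.58) was the only one past 2-fold of 24 stress genes, where Hsp90aa1, Hsp90ab1 and Hspa8 were at -0.48, -0.30 and -0.29. Gstp1 was the only one of 19 oxidative stress genes. No proliferation gene had 50 UMIs in these cells. The list summed to 71.9 CPM at low burden and 255 CPM at high burden, with Birc5 at 2 and 20 UMIs, against 213 and 1863 CPM in other cells.

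Markers of other classes were lower than in other cells for some lists and higher for others. Summed over its 10 markers, the club-like list was at 167931 CPM at low burden and 214742 CPM at high burden, and at 7520 and 7841 CPM below the club gate. Other cells held 24744 and 6377 CPM, so over all ciliated cells this list was above them in both libraries. The AT2-like list was at 5147 and 2597 CPM against 17075 and 3503 CPM in other cells, the stromal-like list at 1023 and 252 CPM against 6212 and 858 CPM, and the endothelial-like list at 513 and 261 CPM against 3726 and 521 CPM. The monocyte or macrophage-like list was at 784 and 1215 CPM against 6088 and 7101 CPM, with 8 of 11 markers seen at low burden and 10 of 11 at high burden. Krt5, Krt14, Krt15 and Trp63, which define basal cells, were at 0 in both libraries, and the basal-like list summed to 6.68 and 0 CPM. The 5 B cell-like markers summed to 21.7 and 0 CPM. At high burden 4 further lists were above other cells. AT1-like was at 689 against 443 CPM and alveolar macrophage-like at 268 against 115 CPM. Goblet-like was at 94.4 against 6.37 CPM and neuroendocrine-like at 31.5 against 3.30 CPM. Among these 4, only the neuroendocrine-like list was above other cells at low burden, at 35.1 against 11.7 CPM. The AT1-like, alveolar macrophage-like and goblet-like lists were below, at 1058 against 2414, 458 against 3346 and 10.0 against 14.3 CPM. The dendritic-like, neutrophil-like, T cell-like, NK-like, smooth muscle or pericyte-like, mesothelial-like and metastatic-like lists were below other cells in both libraries, at 9.44 to 371 CPM. PYMT, the transgene of the Met-1 cells, had 0 UMIs in ciliated cells at low burden, which allows up to 5.01 CPM, and 24 in 13 of 21 cells at high burden, 75.6 CPM against 70.7 CPM in lymphocyte-gate cells. The part of these markers in the differences between libraries was not tested.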

How the data were processed

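Whole lungs were dissociated and sequenced with 10x Genomics chemistry, 1 library per group, with burden read from each title. The authors ran Cell Ranger 2.0.2 on mm10 with PYMT added (per the labels and methods), and the deposited values are raw UMI counts per gene and cell, with no normalization. Whether an aggregation step preceded deposition is not given in the sources used here. Cells with 1000 to 7000 genes and at most 10% mitochondrial UMIs were kept. UMIs of a cell set were summed and scaled to CPM. Ratios carry exact conditional binomial intervals, counts exact Poisson intervals and shares exact Clopper-Pearson intervals (95%). A count of 0 was set to 3. Against other cells, 5 CPM were added. The interval code was tested on simulated data. Named genes were the rule genes, the 20 leading genes outside the rule, the 10 highest and 10 lowest ratios, and from each list the 3 members with most UMIs and those past 2-fold; other list members, Ccno, PYMT and single cells were chosen after their values were seen. Symbols that occur more than once were not named. A list member that the rule would name is not reported here. The members and lists were chosen with earlier results of these data known. The lymphocyte gate was Cd3d, Cd3e, Cd3g, Cd79a, Cd79b and Ms4a1 at 10 or more per 10000 and the AT2 gate 4 surfactant genes at 200 or more. Tools were Python 3.11.15, scipy 1.17.1, pandas 2.3.3 and scanpy 1.11.5.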

Additional observations from a re-analysis of the deposited data

How the results depend on the processing

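No paired analysis was possible because each group had 1 library and no test was made. The ciliated share at low burden stayed within its interval under all 11 alternatives, and that at high burden under 10 of 11, and was 0.297% without cells that met another gate. The counts of genes at least 2-fold higher and lower were 752 and 1389 with no filter on low counts and 11 and 42 at 100 UMIs, since fewer or more genes were compared, and 8 and 55 with cells thinned to 2000 UMIs. At 20 per 10000, 22 were higher. The lower genes numbered 189 with each cell weighted alike, 68 without cells that met another gate and 72 without club-gate cells. The median absolute log2 ratio was 0.31 with median-of-ratios scaling, 0.48 unfiltered, 0.39 with cells weighted alike, 0.44 thinned and 0.31 without club-gate cells. The ciliary median of -0.44 was -0.30, -0.53, -0.84 and -0.059 under median-of-ratios scaling, cells weighted alike, thinning and leaving out club-gate cells, and -0.11 without cells that met another gate. Against other cells, the ciliary median at low and high burden was 3.32 and 3.05 without cells that met another gate, and 3.28 at low burden against lymphocyte-gate cells. Among single genes, Lyz1 (0.64) and Scgb3a1 (1.38) turned positive without cells that met another gate, and Scgb3a1 (1.34) without club-gate cells. The settings without club-gate cells and without each gene's top cell were chosen after seeing the data. With 21 high-burden cells, 9 of them below the club gate, a gene at 0 there allows up to 36.1 CPM.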

Other observations

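Most Ccno UMIs of the ciliated cells lay in 2 high-burden cells. Ccno, a cyclin-related protein needed for centriole amplification, had 6 UMIs in 6 of 63 low-burden ciliated cells and 26 UMIs in 5 of 21 high-burden ciliated cells. Of the 26, 11 and 12 lay in 2 cells that met both the ciliated rule and the club gate. The first of them also held 5 UMIs of Ccdc67, which builds the deuterosomes that multiply centrioles, 7 of Myb and 24 of Foxj1, and the second 3 of Mcidas, 5 of Myb and 3 of Foxj1. They lay near the threshold of the rule, at 17.8 and 16.7 per 10000, with 3816 and 2377 club UMIs per 10000 and 220 and 168 UMIs of the ciliary lists per 10000, beside a median of 206 in the 12 high-burden cells that met both gates and 520 in the 9 below the club gate. The 3 UMIs of Mcidas were all of this gene in ciliated cells of both libraries. Outside the rule, Ccno had 24 UMIs in low-burden and 18 in high-burden cells, and it reached 5 UMIs in 1 of 2410 and 0 of 3012 cells. These genes and cells were chosen after their values were seen.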
